A study of Mus musculus with 6 samples.

Results

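Leukocytes leave the blood by binding in sequence to molecules on the endothelial surface, and 8 genes for such molecules were followed here after knockdown of the long non-coding RNA Gm39822. They are Selp, Sele, Vcam1, Icam1, Icam2, Pecam1, Mcam and Alcam, chosen by gene name from the 49315 genes of the deposited count table, and each name was found on 1 row. The cells were bEND.3, a line of mouse brain endothelium that was immortalized for culture. The knockdown group, labelled GapmeR, was transfected with 100 nM of an antisense LNA GapmeR against Gm39822, a short oligonucleotide whose target RNA is cut by RNase H. The Negative Control group received 100 nM of a control antisense LNA GapmeR with the same lipid reagent, and both groups grew in serum-containing medium. The labels name a single oligonucleotide against Gm39822, no cytokine stimulus and no time after transfection. Total RNA of 4 GapmeR and 2 Negative Control samples was sequenced, and the study's text gives n = 4 for each group.

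In the textbook order of events, selectins catch flowing leukocytes so that they roll, immunoglobulin-family molecules such as VCAM-1 and ICAM-1 then hold them through leukocyte integrins, and junctional molecules such as PECAM-1 take part in their passage between endothelial cells. Selectins, VCAM-1 and ICAM-1 are known to be induced by inflammatory cytokines, whereas ICAM-2, PECAM-1 and MCAM are carried by resting endothelium. P-selectin is in addition stored in Weibel-Palade bodies, the secretory granules of endothelium.

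The targeted Gm39822 was counted 2, 1, 4 and 2 times after knockdown, against 61 and 56 times in the controls, which is the direction the labels give. Total counts lay between 29261988 and 37117934 per sample, and a floor of 3 counts corresponded to between 0.0771 and 0.11 normalized CPM (counts scaled to a common library size). All 14 endothelial markers checked had counts in every sample, with summed expression of 8618 to 9975 CPM after knockdown and of 10180 and 10671 CPM in the controls. All 12 macrophage markers also had counts in every sample, and their sums of 233, 214, 370.1 and 401 CPM over GapmeR samples 1 to 4 exceeded the 183 and 178 CPM of the controls. Most of these sums came from Lyz2 and Cd68, with means of 131 and 119 CPM after knockdown and 65.5 and 88.3 CPM in the controls. Mural cell markers summed to 8.5 to 12.9 CPM after knockdown and to 2.04 and 1.94 CPM in the controls. Of 6 mural markers tested, only Myh11 (mean 5.64 against 0.308 CPM) and Tagln (2.09 against 0.522 CPM) were called higher by edgeR. Platelet markers summed to 7.61 to 9.13 CPM and to 5.22 and 5.26 CPM. Of 3 tested, only Itga2b was called higher (5.35 against 1.8 CPM), and the estimates of Pf4 and Gp1ba were negative. Epithelial markers summed to 1.18 to 1.45 CPM and to 0.475 and 0.783 CPM, with 2 of 4 tested called higher. Fibroblast markers summed to 15.4 to 74.2 CPM and to 14.5 and 16.0 CPM. The part of these other cell type markers in the results was not tested. In bulk RNA a change in the number of cells of a type cannot be told apart from a change in RNA per cell.

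Promoter sequence was at hand for 5 of the 8 genes, and 3 of them are printed because they set the fallen selectins beside Icam1, which did not pass the test. Each is the 250 bases before the transcript start in RefSeq, on build GRCm38.p6 (mm10) and the plus strand, at chr1:164047984-164048233 for Sele, chr1:164115014-164115263 for Selp and chr9:21015690-21015939 for Icam1. The Sele transcript start in that table lies inside the span RefSeq gives the gene. Capitals mark matches to the motifs named after the sequences.
Sele: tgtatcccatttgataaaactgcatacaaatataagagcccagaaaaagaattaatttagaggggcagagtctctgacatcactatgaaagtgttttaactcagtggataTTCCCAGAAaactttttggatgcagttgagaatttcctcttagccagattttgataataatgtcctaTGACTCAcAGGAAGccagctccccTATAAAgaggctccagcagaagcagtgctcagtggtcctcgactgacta
Selp: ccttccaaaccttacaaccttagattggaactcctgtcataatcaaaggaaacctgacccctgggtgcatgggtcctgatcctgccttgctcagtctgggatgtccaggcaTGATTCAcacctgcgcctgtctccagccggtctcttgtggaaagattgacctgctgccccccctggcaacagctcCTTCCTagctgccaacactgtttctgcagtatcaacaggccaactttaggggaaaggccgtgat
Icam1: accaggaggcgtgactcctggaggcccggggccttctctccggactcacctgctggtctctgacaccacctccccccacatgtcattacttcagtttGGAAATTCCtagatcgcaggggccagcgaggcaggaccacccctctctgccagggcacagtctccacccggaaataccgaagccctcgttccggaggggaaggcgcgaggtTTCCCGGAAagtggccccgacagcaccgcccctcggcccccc
In Sele the capitals are, from the far end, a STAT element (TTCNNNGAA) at 140 to 132 bases before the start, an AP-1 element (TGANTCA) at 73 to 67, an ETS element (AGGAAG) at 65 to 60 and a TATA box (TATAAA) at 49 to 44. In Selp they are an AP-1 element at 139 to 133 bases and an ETS element, read on the other strand, at 64 to 59. In Icam1 they are a relaxed NF-kB element (GGAANTTCC), a pattern chosen after the windows had been read, at 153 to 145 bases, and a STAT element at 42 to 34. Both strands were searched.

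Of all 32851 windows of this length in the RefSeq table, the STAT element was found in 7.02%, the AP-1 element in 6.75%, the TATA box in 12.4%, the ETS element in 29.5% and the relaxed NF-kB element in 0.813%. The NF-kB consensus was in 3.9% of windows and the IRF element in 2.98%, and neither had a match in the 5 windows of adhesion molecules. The windows also differed in base composition. GC content was 40.4% in Sele, 53.6% in Selp and 65.2% in Icam1, and 73.6% and 69.2% in Mcam and Alcam, against a median of 52.4% over all windows. The Sele window held 1 CpG, that of Selp 3 and that of Icam1 15. Mcam had none of these motifs, and Alcam had an ETS element at 18 to 13 bases. A match is a description of the letters and was not tested against the expression values.

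Knockdown was accompanied by lower transcript levels of 5 of the 8 adhesion molecules, and by higher levels of none at the same threshold. Selp, Vcam1 and Sele had the largest falls, and Alcam and Pecam1 fell less. Icam2, Mcam and Icam1 did not pass the test, with estimates of -0.15, -0.18 and 0.54 on the log2 scale. Genes were tested by edgeR's quasi-likelihood method, and p-values were adjusted by Benjamini-Hochberg over the 18234 genes with enough counts, and a gene was called at an adjusted p-value under 0.05. Among all genes tested 20.0% were called lower and 25.4% higher. The median log2 fold change of the 8 genes was -0.35, against 0.03 over all genes tested. With the added requirement of a 1.5-fold change, 3 of the 8 were lower, against 7.62% of all genes.

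**Figure D1:**
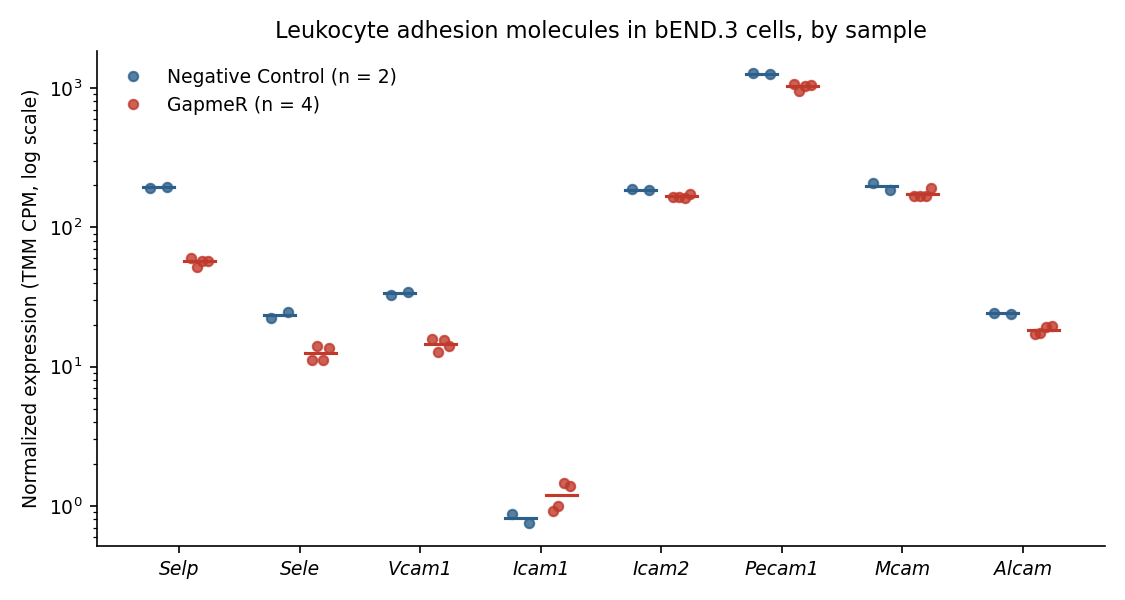
Normalized expression (TMM CPM, log axis) of the 8 adhesion molecules in the 2 Negative Control samples (blue) and the 4 GapmeR samples (red), 1 point per sample with the mean of each group as a line. Selp, Sele, Vcam1, Icam2, Pecam1 and Alcam lay lower in every GapmeR sample than in both controls, Mcam overlapped, and Icam1 was near 1 CPM in both groups.

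Among the selectins, Selp (ENSMUSG00000026580), which encodes P-selectin and lies on chromosome 1 of mm10 from 164115264 to 164150026, plus strand, was counted 2052, 2020, 1776 and 1861 times across GapmeR samples 1 to 4, and 5227 and 6226 times in the controls. In normalized terms these were 60.6, 51.9, 57.3 and 57.6 CPM against 191 and 195 CPM. The 4 GapmeR values stood close together and far below both controls. The level was 3.4-fold lower, with a log2 fold change of -1.76 (SE 0.07, 95% interval -1.92 to -1.61, adjusted p = 1.5e-11 by edgeR's quasi-likelihood test). This placed Selp at the 0.96th percentile of log2 fold changes over all genes tested.

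Sele (ENSMUSG00000026582) encodes E-selectin, the cytokine-induced selectin of endothelium, on chromosome 1 from 164039614 to 164058487, plus strand. It had 380, 548, 343 and 435 counts after knockdown and 615 and 790 counts in the controls, or 11.2, 14.1, 11.1 and 13.5 CPM against 22.5 and 24.8 CPM. All GapmeR samples were below both controls, with samples 2 and 4 the highest of the 4. Sele was 1.89-fold lower (log2 fold change -0.92, SE 0.11, 95% interval -1.15 to -0.69, edgeR adjusted p = 4.2e-06). The intervals of Selp and Sele did not overlap, although the difference between the genes was not itself tested.

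Both selectins lie close together on chromosome 1, and 56.8 kb separate Sele from Selp. Genes around them were looked at after the values of the selectins had been seen. F5, the gene of coagulation factor V next to Selp, went the other way from the selectins, from 5 and 7 counts in the controls to between 26 and 39 after knockdown (log2 fold change 2.25, edgeR adjusted p = 0.00023). Slc19a2 and Mettl18, on either side of the selectins and within 100 kb of them, had estimates of 0.14 and -0.06 with adjusted p-values of 0.262 and 0.812.

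Of the immunoglobulin-family ligands of leukocyte integrins, Vcam1 (ENSMUSG00000027962) binds the integrin VLA-4 of monocytes and lymphocytes and lies on chromosome 3 from 116110020 to 116129688, minus strand. GapmeR samples 1 to 4 held 536, 494, 484 and 452 of its counts, where the controls held 901 and 1093. The normalized values of 15.8, 12.7, 15.6 and 14.0 CPM were all less than both control values of 32.9 and 34.2 CPM. The transcript was 2.31-fold lower (log2 fold change -1.21, SE 0.10, 95% interval -1.41 to -1.01, edgeR adjusted p = 4e-08), at the 2.57th percentile of all genes.

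Icam1 (ENSMUSG00000037405), whose product is a ligand of the leukocyte integrins LFA-1 and Mac-1, was scarce in these cells. It lies on chromosome 9 from 21015940 to 21028814, plus strand, and had 31, 39, 45 and 45 counts after knockdown and 24 in each control. These were 0.915, 1.0, 1.45 and 1.39 CPM against 0.876 and 0.752 CPM, so every GapmeR sample was above the controls. The counting error of a single sample was 14.9% to 20.4% at this depth. The log2 fold change of 0.54 (SE 0.30, 95% interval -0.10 to 1.18) had an edgeR adjusted p of 0.155, so the interval reached from just below 0 to above 1. GapmeR samples 3 and 4, with the highest Icam1 values, were also those with the highest summed macrophage markers, and with GapmeR samples 1 and 2 alone the estimate was 0.26. The part of the marker genes in the Icam1 value was not tested.

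Icam2 (ENSMUSG00000001029), an LFA-1 ligand of resting endothelium on chromosome 11 from 106377656 to 106388139, minus strand, was plentiful. Its levels were 165, 166, 163 and 174 CPM after knockdown and 188 and 184 CPM in the controls. The groups did not overlap but lay close, and the log2 fold change of -0.15 (SE 0.07, 95% interval -0.30 to -0.01) had an edgeR adjusted p of 0.0805. Leaving out GapmeR sample 2 gave -0.15 with an adjusted p of 0.0471. The reverse strand of Icam2 carries Prr29, with at most 133 counts in a sample, and the strand setting of the counts is not given in the sources used here.

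Next to Icam1 on chromosome 9, other members of its family were examined after the values were seen. Icam5, known from neurons, had 44, 33, 61 and 25 counts after knockdown and 73 and 82 in the controls, and it was called lower (log2 fold change -1.11, SE 0.31, edgeR adjusted p = 0.0086). Icam4 had 0 counts in all 6 samples, which allows up to 3 counts in each. Within 100 kb, S1pr2, a sphingosine-1-phosphate receptor gene, was lower (log2 fold change -0.48, SE 0.13, edgeR adjusted p = 0.0059), and Tyk2, a cytokine receptor kinase gene, was higher by 0.25 on the log2 scale (edgeR adjusted p = 0.0128).

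Among the molecules of endothelial junctions and cell-cell contact, Pecam1 (ENSMUSG00000020717), which binds PECAM-1 on the passing leukocyte, had the highest level of the 8 genes. It lies on chromosome 11 from 106654213 to 106715281, minus strand, 266074 bases from Icam2. Its levels were 1074, 953, 1031 and 1058 CPM after knockdown and 1275 and 1256 CPM in the controls. All 4 GapmeR values were lower, and the fall was 1.23-fold (log2 fold change -0.30, SE 0.08, 95% interval -0.46 to -0.13, edgeR adjusted p = 0.005). The call rested on both controls, since without control 1 the value was -0.27 with an adjusted p of 0.0783 and without control 2 it was -0.29 with 0.0663. Scaling by library size alone gave -0.15 with an adjusted p of 0.102.

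Mcam (ENSMUSG00000032135), or CD146, lies on chromosome 9 from 44134658 to 44142727, plus strand, and had 168, 167, 167 and 192 CPM after knockdown and 208 and 185 CPM in the controls. GapmeR sample 4 overlapped the lower control. The log2 fold change was -0.18 (SE 0.08, 95% interval -0.35 to -0.00, edgeR adjusted p = 0.0876), and without GapmeR sample 4 it was -0.23 with an adjusted p of 0.0312. Without control 1 it was -0.07 and without control 2 -0.24. The opposite strand holds Gm10687, with at most 155 counts in a sample.

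Alcam (ENSMUSG00000022636), known for binding CD6 on T cells, lies on chromosome 16 from 52248996 to 52453081, minus strand. It had 575, 673, 596 and 631 counts after knockdown and 669 and 758 in the controls, or 17.0, 17.3, 19.2 and 19.5 CPM against 24.4 and 23.8 CPM. The GapmeR values were all lower than both controls, and the fall was 1.32-fold (log2 fold change -0.40, SE 0.09, 95% interval -0.59 to -0.21, edgeR adjusted p = 0.0018).

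**Figure D2:**
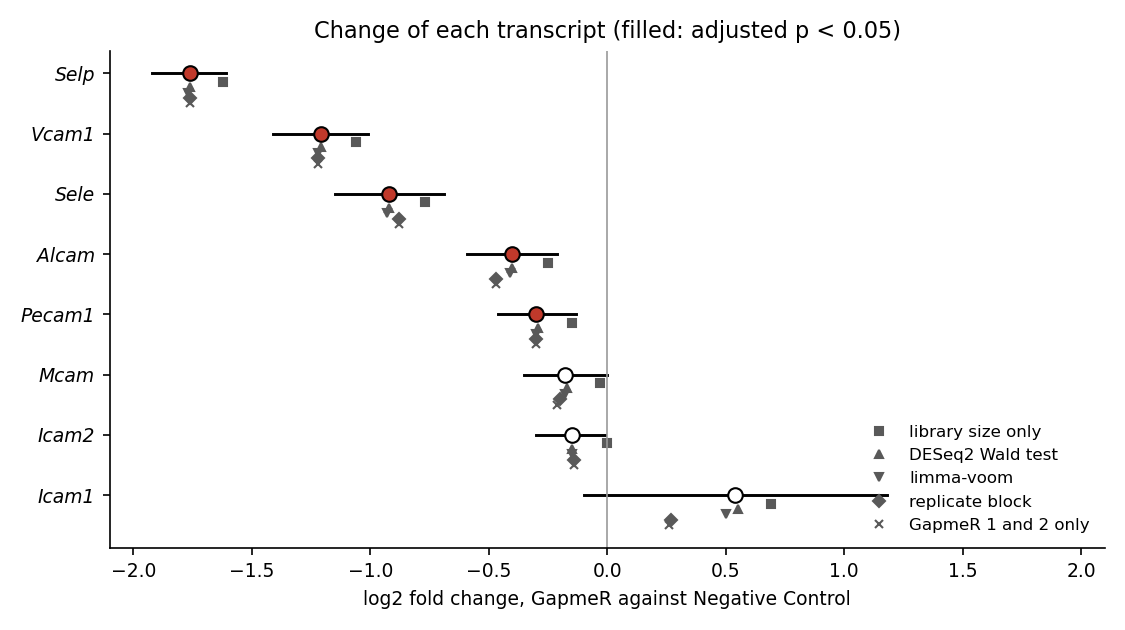
log2 fold change of each adhesion molecule, GapmeR against Negative Control (horizontal axis), with the 95% interval as a line, filled circles for adjusted p under 0.05 and grey symbols below each line for 5 alternative fits. Selp, Vcam1 and Sele stayed at or below -0.77 in all of those fits, and Icam1 had the widest interval, from -0.10 to 1.18.

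With 4 samples against 2, only 15 splits exist, and an exact permutation p-value cannot be below 0.0667. That smallest p of the exact two-sided permutation test was reached by Vcam1, Icam2, Sele, Selp, Pecam1 and Alcam, and Icam1 and Mcam each gave 0.133. In the direction of lower expression, 6 of the 8 genes had all GapmeR samples below both controls, against 27.3% of all genes tested, and Icam1 was the 1 gene with all of them above, against 31.9%.

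Ratios within a library do not depend on how libraries are scaled, so each transcript was also set against Pecam1 of the same sample. On the log2 scale the ratio of Selp counts to Pecam1 counts was -4.15, -4.20, -4.17 and -4.20 after knockdown, against -2.74 and -2.69 for the controls, a difference of -1.47. For Vcam1 the ratio was -6.15 ± 0.10 (SD, n = 4) after knockdown and -5.24 ± 0.06 (SD, n = 2) in the controls. For Sele it was -6.37 ± 0.23 and -5.75 ± 0.11. These transcripts were lower relative to Pecam1 in every GapmeR sample, with differences of -1.47, -0.91 and -0.63.

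Pecam1 itself had a log2 fold change of -0.30, so a transcript that fell less than Pecam1 has a higher ratio after knockdown. Icam1 stood higher relative to Pecam1, by 0.82, with no overlap of the groups, where its own log2 fold change was 0.54. Icam2 stood higher by 0.15, again without overlap, where its own log2 fold change was -0.15. The share of all genes whose ratios to Pecam1 do not overlap was not computed. Mcam differed by 0.12 with overlapping groups. Alcam differed by -0.10 and was lower in every GapmeR sample, at -5.98 to -5.75 against -5.71 and -5.72 in the controls. For Vcam1, Icam1, Sele and Selp the exact two-sided permutation p was 0.0667, the smallest possible, and 0.117 after Benjamini-Hochberg adjustment over the 7 ratios. For Icam2, Mcam and Alcam the exact permutation p was 0.133, 0.267 and 0.333.

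**Figure D3:**
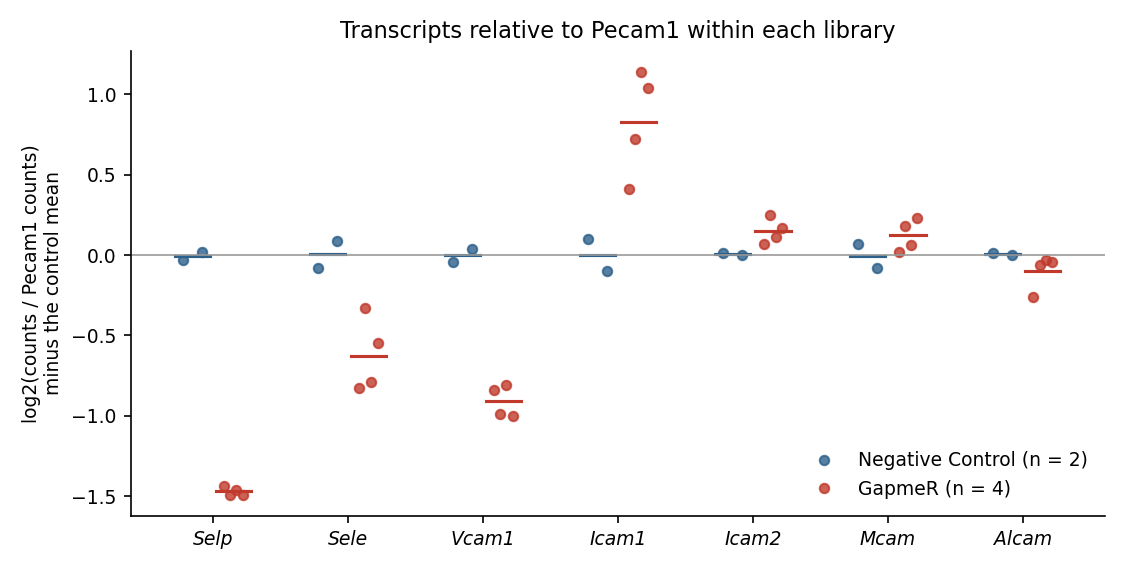
log2 ratio of each transcript's counts to Pecam1 counts in the same library, minus the control mean (vertical axis, log2 units), for the 2 Negative Control samples (blue) and the 4 GapmeR samples (red), with lines at the group means. The selectins and Vcam1 lay below the controls by 0.63 to 1.47 on average, and Icam1 lay above by 0.82. Pecam1 itself had a log2 fold change of -0.30.

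Levels of different genes were compared only per kilobase of exon, as TMM CPM divided by the combined exon length of each gene. In the controls the order from the highest was Pecam1 with 126 ± 1.32 CPM per kb (SD, n = 2), Mcam with 54.3 ± 4.55, Selp with 43.7 ± 0.685 and Icam2 with 25.0 ± 0.428, followed by Sele with 6.15 ± 0.425, Vcam1 with 3.73 ± 0.107, Alcam with 3.38 ± 0.0666 and Icam1 with 0.164 ± 0.0177. No neighbours in this order overlapped. After knockdown the level of Selp was 12.9 ± 0.819 CPM per kb (SD, n = 4), below that of Icam2 at 22.5 ± 0.628, so the 2 genes changed places. The same exchange was seen when the longest transcript was used as the length. Both lengths came from the same annotation, at 7425 and 6560 bases for Icam2 and 4413 and 3438 bases for Selp. Which transcripts these cells make was not measured, so the order of genes holds for these lengths only.

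Sele was at 3.25 ± 0.402, Alcam at 2.56 ± 0.184 and Vcam1 at 1.62 ± 0.164 CPM per kb after knockdown, again without overlap of neighbours. With the longest transcript as the length, Vcam1 and Sele, and Sele and Alcam, overlapped in the GapmeR samples, and Mcam and Selp in the controls. As a share of the summed level per kb of the 8 genes, Selp took 16.6% ± 0.554 (SD, n = 2) in the controls and 6.65% ± 0.263 (SD, n = 4) after knockdown. Pecam1 took 48.1% ± 0.555 and 53.0% ± 1.21, and Mcam 20.6% ± 1.37 and 24.8% ± 1.10. Icam2 took 9.51% ± 0.0014 in the controls and 11.6% ± 0.399 after knockdown. These shares rest on the annotated combined exon lengths.

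**Figure D4:**
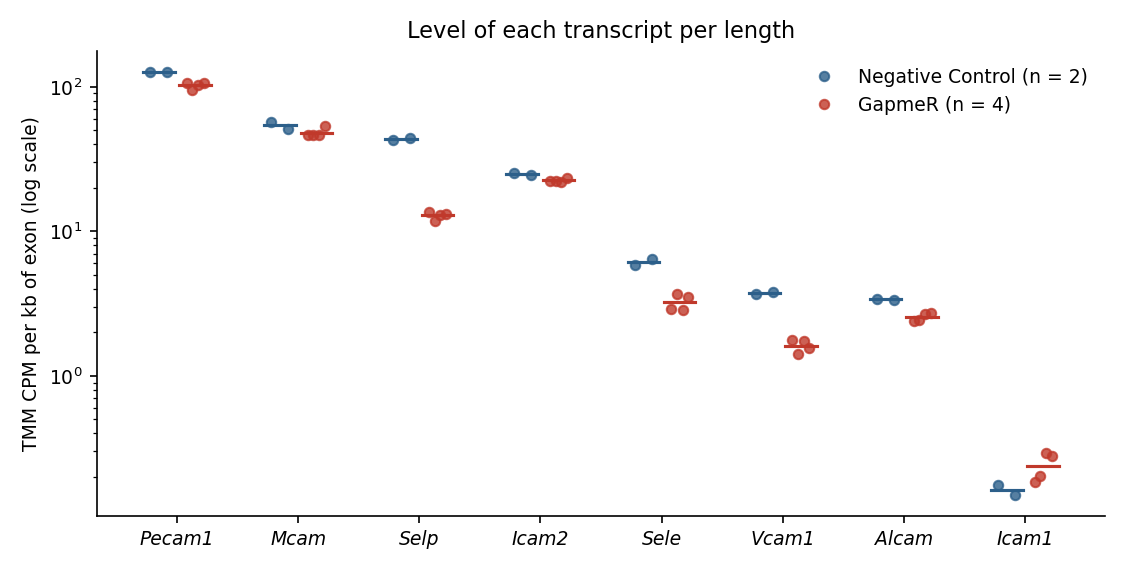
Level of each adhesion molecule per length (TMM CPM per kb of exon, log axis), ordered by the control mean, for the 2 Negative Control samples (blue) and the 4 GapmeR samples (red), with lines at the group means. Selp was above Icam2 in both controls (43.7 against 25.0 on average) and below it in all GapmeR samples (12.9 against 22.5). The order of genes depends on the annotated lengths.

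Genes with the most similar profiles were found among 8870 genes with a mean of at least 10 CPM, as those nearest in log2 CPM centred on each gene's own mean over the 6 samples. For Selp they were Nmnat2, Clic5 and Asb13, at distances of 0.12, 0.14 and 0.15, and for Vcam1 the nearest was Tapbpl, at 0.08. Sele lay nearest to Tcta, Nlk and Papola, at 0.12, 0.13 and 0.14. Icam1 lay nearest to Ltbp4, Man2b1 and Plekho1, at 0.19, 0.22 and 0.22. With 6 samples in 2 groups such a distance mostly reads the difference between the groups.

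Other genes of leukocyte adhesion were counted in 7 lists, to be read against the 20.0% of all genes tested that were lower and the 25.4% that were higher. Of the 14 endothelial markers, 42.9% were lower and 14.3% higher. Their median log2 fold change was -0.03, against 0.03 over all genes tested. Cdh5 and Esam are among these markers and also in the list that follows. In the list of further surface molecules of capture and transmigration, 15 of the 26 genes tested were lower and 4 higher, with a median log2 fold change of -0.43. The junctional genes Cdh5, F11r, Jam2 and Esam were among the lower ones, at -0.51, -0.45, -0.40 and -0.63, and Jam3 and Cd99l2 did not pass, at 0.20 and -0.04. Cd47, which encodes a surface ligand of the leukocyte receptor SIRP-alpha, was at 119 ± 5.96 CPM (SD, n = 4) after knockdown and at 302 ± 16.3 CPM (SD, n = 2) in the controls, and fell by 1.35 on the log2 scale (SE 0.07, edgeR adjusted p = 3.5e-10).

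Aoc3 and Stab1 rose in the same list. Aoc3 encodes vascular adhesion protein-1, an amine oxidase that also takes part in leukocyte capture, and had 591, 610, 570 and 667 counts after knockdown and 25 and 29 in the controls. Its level was 18.0 ± 2.07 CPM against 0.911 ± 0.00279 CPM, a log2 fold change of 4.30 (SE 0.17, edgeR adjusted p = 1.3e-11). Stab1, which encodes the scavenger receptor stabilin-1, rose from 49.1 ± 5.86 to 129 ± 13.5 CPM (log2 fold change 1.39, SE 0.10, edgeR adjusted p = 5.8e-08). Genes of the list moved in both directions, and the rise of Aoc3 was the largest of the 26 genes tested. Over all genes tested, 17.8% were called higher with at least a 1.5-fold change.

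Counter-receptors are the partners that leukocytes carry, and some of them are also made by endothelium. Of the 17 tested, 5 were higher (29.4%) and 7 lower (41.2%), with a median of 0.26. Without control 1, and likewise without control 2, only 2 were called higher and 5 lower. The subunits of VLA-4, the receptor of VCAM-1, fell, Itga4 from 25.4 ± 0.313 to 13.0 ± 0.768 CPM (log2 fold change -0.96, SE 0.09, edgeR adjusted p = 2.5e-07) and Itgb1 by 0.47 on the log2 scale (edgeR adjusted p = 6.8e-05). These subunits were picked for their role after the values were seen. Selplg, which encodes the P-selectin ligand PSGL-1, had 61, 67, 127 and 113 counts after knockdown and 12 and 28 in the controls (log2 fold change 2.04, SE 0.48, edgeR adjusted p = 0.0063). Itgb7 rose by 1.89 (SE 0.31) and Itgax by 1.41 (SE 0.47) on the log2 scale, with edgeR adjusted p-values of 0.00013 and 0.0382.

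The macrophage markers moved beside these leukocyte genes. Of the 12 markers Cd68 alone was called, higher by 0.43, and the median of the list was 1.05. GapmeR samples 3 and 4, where the marker sum was highest, also had the highest Selplg and Itgax counts, with 150 and 102 counts of Itgax against 54 and 81 in GapmeR samples 1 and 2. Itgb2, the common subunit of LFA-1 and Mac-1, followed the same samples, with 168, 203, 464 and 475 counts against 104 and 147 in the controls (log2 fold change 1.23, edgeR adjusted p = 0.236). With GapmeR samples 1 and 2 alone Selplg was at 1.41 (edgeR adjusted p = 0.00054) and Itgax at 0.78 (edgeR adjusted p = 0.0235). Without control 1 the adjusted p was 0.0602 for Selplg and 0.204 for Itgax, and for Itgax it was 0.11 without control 2 and 0.0595 without GapmeR sample 4. The part of the marker genes in these values was not tested. Cd6, the partner of ALCAM, was called higher from 3, 9, 2 and 5 counts against 0 in both controls, too few for a fold change.

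Inside the endothelial cell, clustered ICAM-1 and VCAM-1 are tied to the actin cytoskeleton by anchoring proteins. Of the 18 anchors and signalling genes tested, 8 were lower and 2 higher, with a median of -0.14. Transcripts of the ERM proteins, which link membrane receptors to actin, were all lower. Rdx was at -0.54 (SE 0.07), Ezr at -0.50 (SE 0.07) and Msn at -0.25 (SE 0.08), with edgeR adjusted p-values of 8.2e-06, 2.9e-05 and 0.0193. Slc9a3r1, which encodes a scaffold that binds ERM proteins, was lower by 0.82 on the log2 scale, at 7.24 CPM against 12.7 CPM (edgeR adjusted p = 0.00034). Without control 1 or control 2 the list had 5 and 4 called genes instead of 10.

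Shedding proteases cut adhesion molecules from the surface. Adam17, the protease best known for this, was at 0.02 (SE 0.07, edgeR adjusted p = 0.862), and Adam10 fell by 0.47 on the log2 scale (edgeR adjusted p = 0.00011). Of the 11 genes tested, 4 were lower and 1 higher, with a median of -0.11. Timp3, an inhibitor of these proteases, fell from 214 to 128 CPM (log2 fold change -0.73, SE 0.08, edgeR adjusted p = 9.4e-07), and Mmp14 from 44.8 to 27.2 CPM (log2 fold change -0.72). Adam8 had 38.4, 39.4, 51.4 and 51.5 CPM after knockdown and 28.7 and 23.9 CPM in the controls, and it rose by 0.78 on the log2 scale (SE 0.15, edgeR adjusted p = 0.0015). Its highest values were in GapmeR samples 3 and 4, where the macrophage markers were also highest, and GapmeR samples 1 and 2 alone gave 0.59 (edgeR adjusted p = 3.1e-05).

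**Figure D5:**
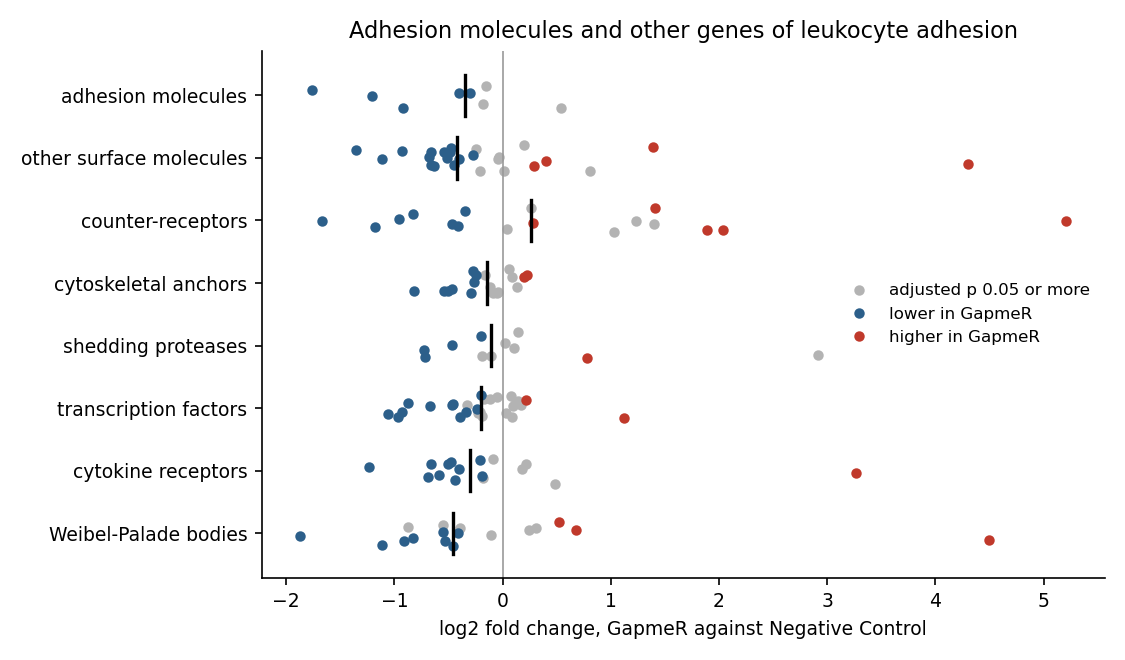
log2 fold change, GapmeR against Negative Control (horizontal axis), of every tested gene of the adhesion molecules and of 7 lists of related genes, 1 point per gene, coloured by the edgeR call, with the median of each list as a black bar. Medians lay between -0.46 and 0.26, and Aoc3, Ager and Unc13d stood far to the right with values above 3, while the rightmost counter-receptor, Cd6, had 0 counts in both controls and its place is no measured fold change.

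Among transcription factors known to act on adhesion molecule genes, 11 of the 27 genes tested were lower and 2 higher, with a median of -0.20. Rela, which encodes the p65 subunit of NF-kB, did not pass at -0.23 (SE 0.09, edgeR adjusted p = 0.0624), Nfkb1 was higher by 0.22 and Nfkb2 lower by 0.39 on the log2 scale. The interferon-linked factor Irf1 fell from 156 ± 4.41 to 85.4 ± 8.16 CPM (log2 fold change -0.87, SE 0.08, edgeR adjusted p = 4.1e-07). Of the Krüppel-like factors, Klf4 fell from 141 to 67.5 CPM (log2 fold change -1.06) and Klf2 by 0.47. The ETS factors were split, with Erg higher at 289 ± 10.5 against 133 ± 2.47 CPM (log2 fold change 1.12, SE 0.07, edgeR adjusted p = 4.9e-09) and Ets1 and Fli1 lower by 0.67 and 0.93.

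The receptors through which cytokines induce adhesion molecules numbered 16 tested genes, of which 10 (62.5%) were lower and 1 (6.25%) higher, with a median of -0.30. The same shares were 20.0% and 25.4% over all genes tested. Tnfrsf1a, the main TNF receptor, fell by 0.48 on the log2 scale (edgeR adjusted p = 0.00066), and Il13ra1, an IL-13 receptor chain, by 1.23 (edgeR adjusted p = 0.00084). The IL-1 receptor gene Il1r1 did not pass, at 0.22 with an adjusted p of 0.385. Ager, which encodes the receptor for advanced glycation end products, rose from 0.806 ± 0.366 to 7.97 ± 0.641 CPM (log2 fold change 3.27, SE 0.22, edgeR adjusted p = 5.6e-09).

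Weibel-Palade bodies, where P-selectin is stored, were followed through 17 tested genes, of which 8 were lower and 3 higher, with a median of -0.46. Vwf, which encodes the von Willebrand factor that forms these granules, did not pass, at 6.22 ± 0.912 against 5.23 ± 0.581 CPM (log2 fold change 0.24, SE 0.16, edgeR adjusted p = 0.223). The cargo gene Angpt2 fell from 46.3 to 12.7 CPM (log2 fold change -1.87, SE 0.15, edgeR adjusted p = 3.8e-06), Plat from 17.8 to 8.24 CPM (log2 fold change -1.11), and Cd63, which accompanies P-selectin in the granule membrane, by 0.55 on the log2 scale. Unc13d, a regulator of granule release, had 1438, 1473, 1252 and 1359 counts after knockdown and 47 and 60 in the controls (log2 fold change 4.49, SE 0.12, edgeR adjusted p = 2e-13).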

How the data were processed

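The paper's methods state that ribosomal RNA was depleted, whereas the labels name an ultra low input RNA preparation, so the library type is uncertain. Per the methods, trimmed paired reads were aligned by STAR to mm10, with transcripts from Ensembl. The submitters' processing notes name Trimmomatic 0.36, STAR 2.5.2b and Subread 1.5.2. The values deposited by the authors are raw read counts, whole numbers without normalization, for each Ensembl gene. Neither the strand setting nor the Ensembl release is given in the sources used here, so overlapping genes may share reads.

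Samples were grouped by their titles. The table has 1 more column, headed like a further negative control, that no sample label matches and that was not used. Rows without a gene symbol numbered 174 and were kept, since each has an Ensembl identifier. Genes that reached 5 counts in 2 or more samples were tested with edgeR 4.0.16 in R 4.3.3 (TMM scaling, robust quasi-likelihood test, Benjamini-Hochberg adjustment), and CPM values use the TMM factors, which were 1.02 to 1.05 after knockdown and 0.931 and 0.936 in the controls. The common biological coefficient of variation was 8.42%. Replicates differed beyond sampling noise, with a chi-square per degree of freedom of 5.42 to 25.3. Nothing in the labels says that samples were separate cultures, so p-values measure the spread between these samples. Count floors and counting errors cover counting error only.

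Alternatives were DESeq2 1.42.0's size factors and Wald test, library size alone, limma-voom (limma 3.58.1), 2 other filters, an unadjusted threshold with a 1.5-fold change, a replicate block and each sample left out in turn. GapmeR samples 1 and 2 against both controls was added after seeing the data, because of the macrophage markers. The functions were tested on simulated data.

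The 8 genes, the lists of related genes and the tests were chosen with earlier results of these data known. Named from each list were up to 3 called genes with the largest change, non-overlapping groups and a mean of 1 CPM or more. Genes named outside that rule were chosen for their known role after their values were seen. The 3 nearest profiles used a pseudocount of 0.5 CPM. Some genes that these rules name are not reported here. Cd99 had no row in the table, and 6 genes of the lists were too low to test. Exon lengths and overlaps came from GENCODE on GRCm39, joined by identifier, gene coordinates from RefSeq on GRCm38.p6, and promoters from RefSeq. Vcam1, Icam2 and Pecam1 had no entry in the promoter table. Protein sequences were not used here.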

Additional observations from a re-analysis of the deposited data

Results flagged for a closer look

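Dixon's test was run on 42 groups of 4 GapmeR samples, over the expression values, the ratios to Pecam1 and the marker sums, and 4 had a sample far from the others, where chance gives about 1 in 20. Mcam was at 192 CPM in GapmeR sample 4 and at 167 to 168 CPM in the other GapmeR samples. The log2 ratio of Alcam to Pecam1 was -5.98 in GapmeR sample 1 and between -5.78 and -5.75 in the others. The summed endothelial markers were at 8618 CPM in GapmeR sample 2 and at 9783 to 9975 CPM in the other GapmeR samples. The summed fibroblast markers were at 74.2 CPM in GapmeR sample 3 and at 15.4 to 20.0 CPM in the others.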

How the results depend on the processing

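Selp, Vcam1, Sele and Alcam kept their direction under every alternative run, and their call except that Alcam fails a 1.5-fold threshold, between -1.79 and -1.62, -1.25 and -1.06, -0.98 and -0.77, and -0.47 and -0.25 on the log2 scale, and Icam1 was not called in any, between 0.26 and 0.69. The count of the 8 genes called at 1.5-fold was 3 throughout. At an unadjusted p under 0.05 with a 1.5-fold change, 5110 genes and 3 of the 8 were called. With samples left out, 5232 to 8719 genes and 4 to 6 of the 8 were called, with 7 to 12 counter-receptors and 4 to 10 anchors, and the fold changes ranged from -0.17 to -0.12 for Icam2, from -0.32 to -0.26 for Pecam1 and from -0.24 to -0.07 for Mcam. Leaving out a control leaves 1 sample, assumed to vary like the GapmeR group.

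Library size alone moved the median of all genes by 0.15 to 0.17, and 74.1% of its calls were higher (6106 against 2135) instead of 55.9% (4625 against 3643). Pecam1 was then at -0.15, Mcam at -0.03 and Icam2 at -0.00, while each gene's distance from the median of all genes moved by at most 0.01. The split of some lists also moved under library size alone. Transcription factors were then 8 higher and 8 lower, anchors 4 and 4, shedding genes 4 and 3, and counter-receptors 5 and 5. Further surface molecules were 5 higher and 12 lower, cytokine receptors 2 and 8, and Weibel-Palade genes 3 and 8.

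Deviations from the group mean correlated at -0.0554 and 0.116 between same-numbered samples. With 2 controls, the deviations of 1 mirror those of the other, so this check cannot decide whether the numbers pair samples. The replicate block, on 4 samples with 1 residual degree of freedom, called 7812 genes (4517 higher, 3295 lower), 5 of the 8 adhesion molecules and 6 anchors. Its values were -1.22 for Vcam1, -0.88 for Sele, -1.76 for Selp, -0.30 for Pecam1 and 0.27 for Icam1. GapmeR samples 1 and 2 alone gave 5 anchors. With the longest transcript as the length, control levels were 8.21 CPM per kb for Vcam1, 0.259 for Icam1, 28.3 for Icam2, 56.1 for Selp, 259.5 for Pecam1 and 3.99 for Alcam. Except where a length or a scaling sets the value, the cause was not tested. At about 1 CPM, depth limits Icam1 most.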
